A study of Mus musculus with 12 samples.

Results

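Vcam1, Icam1, Sele, Selp and Alcam encode the adhesion molecules VCAM-1, ICAM-1, E-selectin, P-selectin and ALCAM, which hold passing leukocytes on a tissue surface. They were chosen by gene symbol, and all 5 were measured, each by 1 probe set, among 19505 named genes on the array. The cells were cardiac fibroblasts from wildtype C57BL/6J mice aged 1 to 7 days, cultured for 10 to 14 days, by which time they were myofibroblasts, which are contractile fibroblasts. For 8 h the cultures had carrier alone, sCD74 at 40 nM (a soluble form of CD74, the receptor for MIF), MIF at 8 nM (the cytokine macrophage migration inhibitory factor), or the 2 proteins at once. Each of the 4 groups had 3 arrays, numbered 1 to 3, and the sample titles mark the 4 arrays with the same number by a common code, so each number holds every treatment. Separate isolations are not stated, so p-values measure the spread between these arrays, which may be technical.

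Leukocytes first roll on selectins and then stop when their integrins bind members of the immunoglobulin family. E-selectin is made by inflamed endothelium, while P-selectin is stored in granules of endothelial cells and platelets. VCAM-1 is bound by the integrin alpha4 beta1, ICAM-1 by LFA-1 and Mac-1, and ALCAM by CD6 on T cells. Inflammatory cytokines induce VCAM-1, ICAM-1 and E-selectin through the transcription factor NF-kappaB, and activated fibroblasts also carry VCAM-1 and ICAM-1.

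NF-kappaB acts at promoters, so promoter sequence is shown for the 4 of the 5 genes with an entry in the RefSeq promoter table of build GRCm38.p6, and Vcam1 had none. For each the 250 bases before the annotated start are printed 5′ to 3′ on the gene's strand. Capitals mark matches on either strand to GGANNTTCC (a form of the NF-kappaB site), TATAAA (the TATA box) and GGGCGG (the GC box), which were chosen after the sequences were seen.
Icam1, chr9:21015690-21015939, plus strand: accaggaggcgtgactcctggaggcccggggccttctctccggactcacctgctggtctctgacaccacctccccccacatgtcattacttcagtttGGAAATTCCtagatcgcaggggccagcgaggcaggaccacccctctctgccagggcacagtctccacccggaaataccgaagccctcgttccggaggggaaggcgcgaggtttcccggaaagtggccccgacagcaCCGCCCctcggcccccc
Sele, chr1:164047984-164048233, plus strand: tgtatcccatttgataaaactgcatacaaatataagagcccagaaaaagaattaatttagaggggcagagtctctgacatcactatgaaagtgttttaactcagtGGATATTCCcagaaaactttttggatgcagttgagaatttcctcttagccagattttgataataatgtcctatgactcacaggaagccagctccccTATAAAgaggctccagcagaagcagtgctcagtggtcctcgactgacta
Selp, chr1:164115014-164115263, plus strand: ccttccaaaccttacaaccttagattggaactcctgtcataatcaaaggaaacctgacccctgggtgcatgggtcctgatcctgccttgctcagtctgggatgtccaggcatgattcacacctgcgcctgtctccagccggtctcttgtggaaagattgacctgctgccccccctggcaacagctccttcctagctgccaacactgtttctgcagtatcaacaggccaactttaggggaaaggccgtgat
Alcam, chr16:52453082-52453331, minus strand: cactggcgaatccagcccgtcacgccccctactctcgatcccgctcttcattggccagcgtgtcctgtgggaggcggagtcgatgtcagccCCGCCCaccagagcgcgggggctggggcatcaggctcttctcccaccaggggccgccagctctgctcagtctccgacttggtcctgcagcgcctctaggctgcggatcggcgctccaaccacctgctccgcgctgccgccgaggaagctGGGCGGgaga

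The letters GGANNTTCC stood in the Icam1 window at -153 to -145 from the start and in the Sele window at -145 to -137. They were in neither the Alcam window nor the Selp window, and 3.59% of all 32851 promoter windows of this length held them. A longer and looser form of the NF-kappaB site, whose match in Sele overlapped the shorter one, stood in the Icam1, Sele and Selp windows and in 45.8% of all windows. A pair of interferon regulatory factor sites stood in none of the 4 and in 2.98% of all windows. TATAAA was found in the Sele window alone of the 4 and in 12.4% of all windows, while GGGCGG was found in those of Icam1 and Alcam and in 32.7%. Icam1 and Alcam had GC-rich windows (65.2% and 69.2% G or C), Selp stood at 53.6% and Sele at 40.4%. These matches describe the letters only, and their part in the MIF differences was not tested.

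All values are on the log2 scale deposited by the authors. They reached 18.39, past the range of a usual scanner, and whether a step beyond RMA rescaled them is not stated, so every difference is in units of that scale and its size as a fold is uncertain. Array medians lay between 8.01 and 8.14, and the medians of the negative control probe sets lay between 7.37 and 7.90. Every value of the 5 genes was above the negative control median of its array. Vcam1 exceeded 99.3% to 99.6% of the negative controls, Alcam 98.1% to 98.7%, Selp 97.6% to 98.95% and Icam1 91.2% to 97.2%. Sele was nearest to background, above 62.4% to 93.8% of them, so the size of its differences is the least certain. The labelled cell type was borne out by fibroblast and myofibroblast markers, whose mean log2 value over 11 genes was between 15.38 and 15.64 on every array. The cultures also carried endothelial transcripts (11 markers, array means 9.46 to 10.94, with Cldn5 alone averaging below the negative controls), macrophage transcripts (14 markers, 12.59 to 14.13) and cardiomyocyte transcripts (6 markers, 8.51 to 10.24). In such mixed cultures a smaller number of cells of a type and less RNA per cell cannot be told apart.

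The first comparison asked how the adhesion molecules stood with MIF in the medium, over the 6 arrays with MIF (alone or with sCD74) and the 6 without. Sele was higher with MIF by 1.12 ± 0.32 (SE) on the log2 scale, Icam1 by 0.48 ± 0.19 and Vcam1 by 0.33 ± 0.10. Selp stood 0.47 ± 0.28 higher and Alcam 0.03 ± 0.14. No gene passed limma's test with Benjamini-Hochberg adjustment, 0 of 19505 (0%), and adjusted p was 0.9995 for each of the 5. At an unadjusted p under 0.05 there were 841 genes (4.31%), 477 of them higher (2.45%). Vcam1, Icam1 and Sele were among the latter, 3 of the 5.

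**Figure D1:**
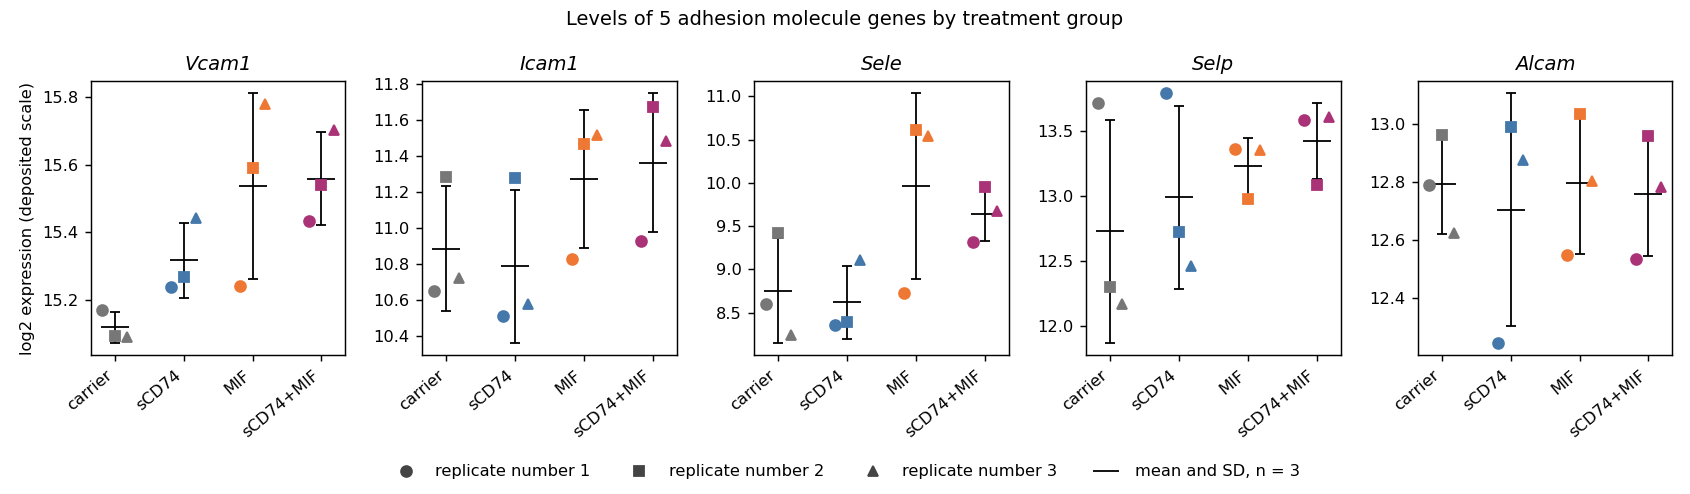
Log2 expression of the 5 genes (vertical axes, each with its own range) on every array, by treatment group, with the mean and SD of 3 arrays. The 3 carrier arrays are the lowest of all for Vcam1, and in each replicate number the arrays with MIF are the higher ones for Vcam1, Icam1 and Sele.

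Vcam1 was the most uniform of the 5 in the carrier cultures. Its log2 values in replicates 1, 2 and 3 were 15.17, 15.09 and 15.09 with carrier, 15.24, 15.27 and 15.44 with sCD74, 15.24, 15.59 and 15.78 with MIF, and 15.43, 15.54 and 15.70 with both proteins. The group means ran in that order, from 15.12 ± 0.05 (SD, n = 3) with carrier through 15.32 ± 0.11 with sCD74 and 15.54 ± 0.27 with MIF to 15.56 ± 0.14 with both. The carrier arrays overlapped with no other group, while sCD74, MIF and both all overlapped with each other. An upward separation from carrier of this kind was seen for 3.64% of genes with MIF, 4.52% with both proteins and 2.51% with sCD74.

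Against carrier, Vcam1 was 0.42 ± 0.15 (SE) higher with MIF (unadjusted p = 0.0136 in limma's fit) and 0.44 ± 0.15 higher with both (unadjusted p = 0.0101). It was 0.20 ± 0.15 higher with sCD74 (unadjusted p = 0.198). When MIF was added to sCD74 the difference was 0.24 ± 0.15 (unadjusted p = 0.121). The first 3 comparisons share the carrier arrays, so they are not independent of each other. The departure of the response to both proteins from the sum of the single responses was -0.18, with a 95% interval from -0.62 to 0.27, so neither a smaller nor a larger joint effect was resolved.

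Icam1 differed more between replicate numbers than between treatments. Its log2 values in replicates 1, 2 and 3 were 10.65, 11.29 and 10.72 with carrier and 10.51, 11.28 and 10.58 with sCD74. They were 10.83, 11.47 and 11.52 with MIF, and 10.93, 11.67 and 11.48 with both. Replicate 2 was high in the carrier and sCD74 groups and overlapped with the arrays given MIF, but inside each replicate number the arrays with MIF were the higher ones.

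The order of the Icam1 means was sCD74 (10.79 ± 0.42, SD, n = 3), carrier (10.89 ± 0.35), MIF (11.27 ± 0.38) and both (11.36 ± 0.38), and the widest gap between neighbours, 0.39 from carrier to MIF, was about the size of their SDs. Against carrier the differences were 0.39 ± 0.27 (SE) with MIF, 0.47 ± 0.27 with both and -0.10 ± 0.27 with sCD74. Adding MIF to sCD74 gave the widest gap, 0.57 ± 0.27 (unadjusted p = 0.0546). The interaction of MIF and sCD74 was 0.19, with a 95% interval from -0.64 to 1.02.

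Sele showed the widest range under MIF. With carrier its log2 values were 8.60, 9.42 and 8.25 in replicates 1, 2 and 3, and with sCD74 8.36, 8.39 and 9.10. With MIF alone they were 8.73, 10.62 and 10.55, and with both proteins 9.31, 9.95 and 9.67. The MIF replicate 1 array stayed within the range of the carrier arrays, whereas the 3 arrays with both proteins all lay above the 3 with sCD74, as they did for 3.95% of genes.

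Means for Sele were 8.62 ± 0.42 (SD, n = 3) with sCD74, 8.76 ± 0.60 with carrier, 9.65 ± 0.32 with both and 9.96 ± 1.07 with MIF. Only the gap between carrier and both exceeded the SD of each neighbour. Sele was 1.21 ± 0.45 (SE) higher with MIF than with carrier (unadjusted p = 0.0184), 0.89 ± 0.45 higher with both (unadjusted p = 0.0686) and 1.02 ± 0.45 higher with both than with sCD74 (unadjusted p = 0.0395). The difference between MIF and carrier was 1.83 without MIF replicate 1 and 0.66 without replicate number 3. With sCD74 alone the difference from carrier was -0.14 ± 0.45, and it was -0.23, -1.03 and 0.86 in replicates 1, 2 and 3. The interaction was -0.18, with a 95% interval from -1.55 to 1.19.

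Selp, the other selectin, split by replicate number. Replicates 1, 2 and 3 had log2 values of 13.71, 12.30 and 12.17 with carrier, 13.78, 12.72 and 12.46 with sCD74, 13.36, 12.97 and 13.35 with MIF, and 13.58, 13.08 and 13.60 with both. Replicate 1 was the highest with carrier and with sCD74, whereas with MIF or with both it was level with replicate 3. Group means were 12.73 ± 0.86 (SD, n = 3), 12.99 ± 0.70, 13.23 ± 0.22 and 13.42 ± 0.29 in the same order, with overlap between all neighbours. The differences from carrier were 0.26 ± 0.39 (SE) with sCD74, 0.50 ± 0.39 with MIF and 0.69 ± 0.39 with both.

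Alcam had similar group means across treatments. It had log2 values of 12.79, 12.96 and 12.62 with carrier, 12.24, 12.99 and 12.87 with sCD74, 12.55, 13.03 and 12.80 with MIF, and 12.53, 12.96 and 12.78 with both. The sCD74 replicate 1 array was the lowest of the 12 and the groups overlapped throughout. Group means lay between 12.70 and 12.79, and the MIF difference had a 95% interval from -0.28 to 0.34. A shift of the size measured for Sele lay outside it, but one of the size measured for Vcam1 (0.33) lay inside. For sCD74 against carrier the interval was -0.53 to 0.35.

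Over the separate comparisons, limma's test called 0 of 19505 genes (0%) for MIF, sCD74 or both against carrier, for both against sCD74 and for the interaction. At an unadjusted p under 0.05 the members were Vcam1 and Sele for MIF against carrier (1.8% of genes were that far on the higher side), Vcam1 for both against carrier (2.13%) and Sele for both against sCD74 (1.46%). With the replicate number as a block, MIF against carrier had 3 members (Vcam1, Icam1 and Sele; 3.42% of genes higher). Both against carrier then had 4, all but Alcam (4.38%), and both against sCD74 had Icam1 and Sele (3.17%). Icam1 moved most, to an unadjusted p of 0.00776 for both against carrier and 0.00232 for both against sCD74, and no adjusted p of the 5 was below 0.536 in these comparisons. Without the block, none of the 5 reached it with sCD74 alone, where 350 genes (1.79%) did, or in the interaction, where 363 (1.86%) did, and with the block none did in either.

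Arrays of a replicate number resembled each other, so the MIF difference was also taken inside each number, as the mean of 2 arrays with MIF less the mean of 2 without. Vcam1 differed by 0.13, 0.38 and 0.48 in numbers 1, 2 and 3, Icam1 by 0.30, 0.29 and 0.85, and Sele by 0.54, 1.37 and 1.43. For these 3 genes each array with MIF lay above each array without it inside every number, a pattern held by 164 genes (0.841%). The margin was narrow for Vcam1 in number 1, where MIF alone stood at 15.24 and sCD74 at 15.24 after rounding. Selp differed by -0.28, 0.52 and 1.16, and Alcam by 0.02, 0.02 and 0.04. In limma's fit with a term for MIF by replicate number, the Selp difference in number 1 lay apart from that in numbers 2 and 3 by -1.12 ± 0.16 (SE; unadjusted p = 3.1e-05, adjusted p = 0.606), and 6.41% of genes had an unadjusted p under 0.05.

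With the replicate number as a block in limma's fit, the MIF differences kept their size and the standard errors became 0.09 for Vcam1, 0.11 for Icam1, 0.25 for Sele and 0.19 for Selp. Unadjusted p was 0.00271 for Vcam1, 6.6e-04 for Icam1, 6.6e-04 for Sele and 0.0277 for Selp, while 4.67% of genes were higher at an unadjusted p under 0.05. Adjusted p was 0.487, 0.422, 0.422 and 0.583, and 1 gene (0.00513%), none of the 5, was called. An exact two-sided permutation test with the MIF label exchanged inside replicate numbers gave p = 0.00926 for each of Vcam1, Icam1 and Sele, the smallest that its 216 arrangements allow, 0.102 for Selp and 0.870 for Alcam. The smallest value follows from the separation of the arrays inside every number described above, so it is no further evidence. Any gene so separated gets it, 0.841% of genes with MIF higher and 0.754% with MIF lower. With the label exchanged over all 12 arrays, the exact permutation p was 0.0130 for Vcam1 and Sele, 0.0519 for Icam1, 0.162 for Selp and 0.851 for Alcam.

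**Figure D2:**
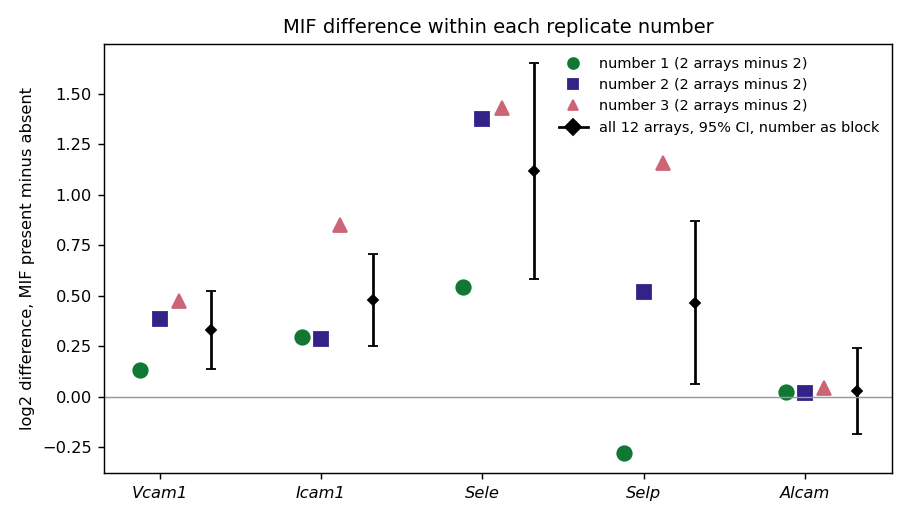
Log2 difference between arrays with and without MIF (vertical axis) for each gene, inside each replicate number (coloured points) and over all 12 arrays with the 95% confidence interval of limma's fit with the number as a block (black). Vcam1, Icam1 and Sele are above 0 in all 3 numbers, Selp is at -0.28 in number 1, and Alcam stays near 0.

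No marker of other cells was called with MIF, but the lists shifted in the separate comparisons. In the 6 arrays without MIF endothelial array means were between 9.55 and 10.91, and in the 6 with it between 9.46 and 10.94. With or without the block 0 of 11 had an unadjusted p under 0.05, where 8.16% and 4.31% of all genes did. Macrophage array means were between 12.59 and 14.09 without MIF and between 12.79 and 14.13 with it, again with 0 of 14. The median MIF difference was 0.02 over the endothelial list, -0.0019 over the macrophage list, 0.07 over the 6 cardiomyocyte markers, 0.14 over the 6 smooth muscle and pericyte markers and 0.0077 over all genes. In the last list Myh11, smooth muscle myosin, had an unadjusted p under 0.05 (0.21 ± 0.09, SE), and 3 of its 6 markers averaged below the negative controls.

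The macrophage value of the pooled comparison joined shifts of opposite sign. The sCD74 comparison given beside them shares its carrier arrays and its sCD74 arrays with them, so it is not independent. For both against carrier the macrophage median was -0.13 (3 of 14 above 0). The macrophage median was -0.20 for MIF against carrier (2 of 14 above 0), -0.34 for sCD74 against carrier (2 of 14 above 0) and 0.16 for both against sCD74 (11 of 14 above 0). With the block 2, 6 and 2 of the 14 had an unadjusted p under 0.05, where 6.43%, 4.19% and 5.4% of all genes did. For the interaction, built from the same arrays, the macrophage median was 0.32 (13 of 14 above 0). There 5 of the 14 had an unadjusted p under 0.05 with the block, where 3.86% of all genes did. For MIF against carrier 2 of 11 endothelial markers did so with the block, Flt1 (0.57 ± 0.30, SE, in the fit without it) and Vwf (-0.36 ± 0.22). The same 2 did so for sCD74 against carrier, which shares the carrier arrays: Flt1 (0.61 ± 0.30) and Vwf (-0.41 ± 0.22). Of the cardiomyocyte markers Myh6 (0.47 ± 0.98) did so for MIF against carrier. Of the 6 smooth muscle and pericyte markers 3 did so for both against sCD74 (5.4% of all genes), where 3 of the 6 lay above 0. Of the 11 fibroblast and myofibroblast markers 3 did so for both against carrier (8.23% of all genes), where the list median was 0.07. For sCD74 against carrier the fibroblast median was 0.13 (9 of 11 above 0), and 1 of the 11 did so (4.19% of all genes). The part of these shifts in the levels of the 5 adhesion genes was not tested.

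The genes that carry inflammatory signals to these promoters were examined as a list of 16 measured members. With MIF 12 of 16 lay above 0 with a median of 0.18 (52.5% of all genes lay above 0, with a median of 0.0077), but 0 passed the adjusted test in either direction. With the block 8 of 16 had an unadjusted p under 0.05, counted in either direction (8.16% of all genes did). Without the block there were 6 of 16, all higher (2.45% of all genes were that far on the higher side). They were Nfkbia, the gene of an inhibitor that holds NF-kappaB in the cytoplasm (0.61 ± 0.15, SE), Tnfaip3, the gene of the feedback inhibitor A20 (0.67 ± 0.24), and the transcription factor Irf1 (0.58 ± 0.22). The others were the TNF receptor Tnfrsf1a (0.30 ± 0.11) and the NF-kappaB subunits Rela (0.28 ± 0.11) and Nfkb2 (0.40 ± 0.17). The interleukin-6 receptor gene Il6ra had the lowest estimate, -0.26 ± 0.15. NF-kappaB genes were already known to be higher in these arrays when the list was drawn up, so it is no independent evidence.

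**Figure D3:**
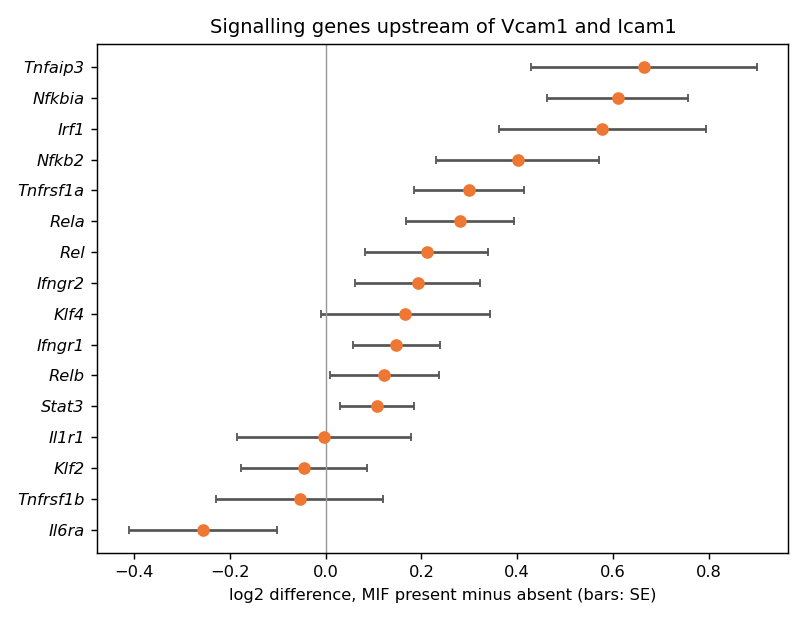
Log2 difference between the 6 arrays with MIF and the 6 without (horizontal axis) for 16 genes of NF-kappaB, interferon and cytokine receptor signalling, with standard errors. Tnfaip3, Nfkbia and Irf1 have the 3 largest differences, and Il6ra the lowest.

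The remaining steps of the adhesion cascade showed no calls with MIF. Of 16 other vessel and junction adhesion molecules 12 lay above 0, with a median of 0.05, and the smallest p belonged to Cd99, used by leukocytes crossing between endothelial cells (0.31 ± 0.17, SE). Leukocyte integrins and selectin ligands were above 0 in 9 of 16 (median 0.04), enzymes that build selectin ligands in 5 of 10 (0.0099) and cytoplasmic anchors and sheddases in 5 of 9 (0.0042). No gene of these 4 lists had an unadjusted p under 0.05. With the block 2 vessel genes did, Cd99 and the junction molecule gene F11r (0.29 ± 0.36, SE, in the fit without it). None of the other 3 lists had such a gene, while 8.16% of all genes passed with the block. For MIF against carrier 13 of the 16 vessel genes lay above 0, and 3 had an unadjusted p under 0.05 with the block (6.43% of all genes). They were F11r, Icam2 (0.33 ± 0.47, SE, in the fit without it) and Podxl (0.60 ± 0.33), which averaged below the negative controls. The other 3 lists again had none. In all, 4 vessel, 7 integrin or ligand and 3 enzyme genes averaged below the negative controls.

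Replicate number gave the calls that treatment did not. In limma's fit with treatment as a term, Icam1 was lower in number 1 than in numbers 2 and 3 by 0.52 on the log2 scale (-0.52 ± 0.11, SE; adjusted p = 0.00716). Alcam was lower as well (-0.35 ± 0.10, adjusted p = 0.0379), and Selp was higher (0.77 ± 0.20, adjusted p = 0.0180). Of all genes 9.39% were called lower and 7.03% higher in this comparison, which makes calls common. Sele (-0.74 ± 0.26, adjusted p = 0.0739) and Vcam1 (-0.17 ± 0.09, adjusted p = 0.259) did not pass.

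Averaged over the 4 treatments, Icam1 stood at 10.73 ± 0.19 (SD, n = 4) in number 1, 11.42 ± 0.18 in number 2 and 11.07 ± 0.49 in number 3. Selp stood at 13.61 ± 0.19, 12.77 ± 0.35 and 12.90 ± 0.69, and Alcam at 12.53 ± 0.22, 12.98 ± 0.03 and 12.77 ± 0.11. The 4 arrays of number 1 overlapped with the other 8 for each of the 5 genes. Between numbers 3 and 2 none of the 5 was called, against 1.15% of genes, and the smallest adjusted p was 0.233, for Icam1 (-0.35 ± 0.13). The Alcam call was the least firm: leaving out any 1 of 10 of the 12 arrays ended it, with adjusted p up to 0.191 without sCD74 replicate 1. The Selp call ended without carrier replicate 1 (0.54, adjusted p = 0.101) or sCD74 replicate 1 (0.64, adjusted p = 0.0978). The Icam1 call held without any single array, at adjusted p up to 0.0387.

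Markers of other cells moved with the same numbers, in a comparison that called 7.03% of all genes higher and 9.39% lower in number 1. Endothelial array means were 10.85 to 10.94 in number 1, 9.46 to 9.58 in number 2 and 9.88 to 10.15 in number 3. In number 1, 7 of 11 endothelial markers were called higher and Vwf lower, with a median of 1.00. Macrophage array means were 12.59 to 12.99, 13.88 to 14.13 and 13.39 to 13.79, and 14 of 14 markers were called lower in number 1 with a median of -1.08. Of the signalling genes, 7 of 16 were called lower in number 1, among them Irf1 (-0.67 ± 0.13) and Tnfaip3 (-0.68 ± 0.16), and 2 higher, Il1r1 and Klf2. Cardiomyocyte array means were 9.85 to 10.16 in number 1, 10.08 to 10.24 in number 2 and 8.51 to 8.60 in number 3. Of 6 cardiomyocyte markers 3 were called higher in number 1, and 5 were called lower in number 3 than in number 2 with a median of -1.47, where 0.708% of all genes were called lower. The part of these markers in the levels of Selp, Icam1 and Alcam was not tested.

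**Figure D4:**
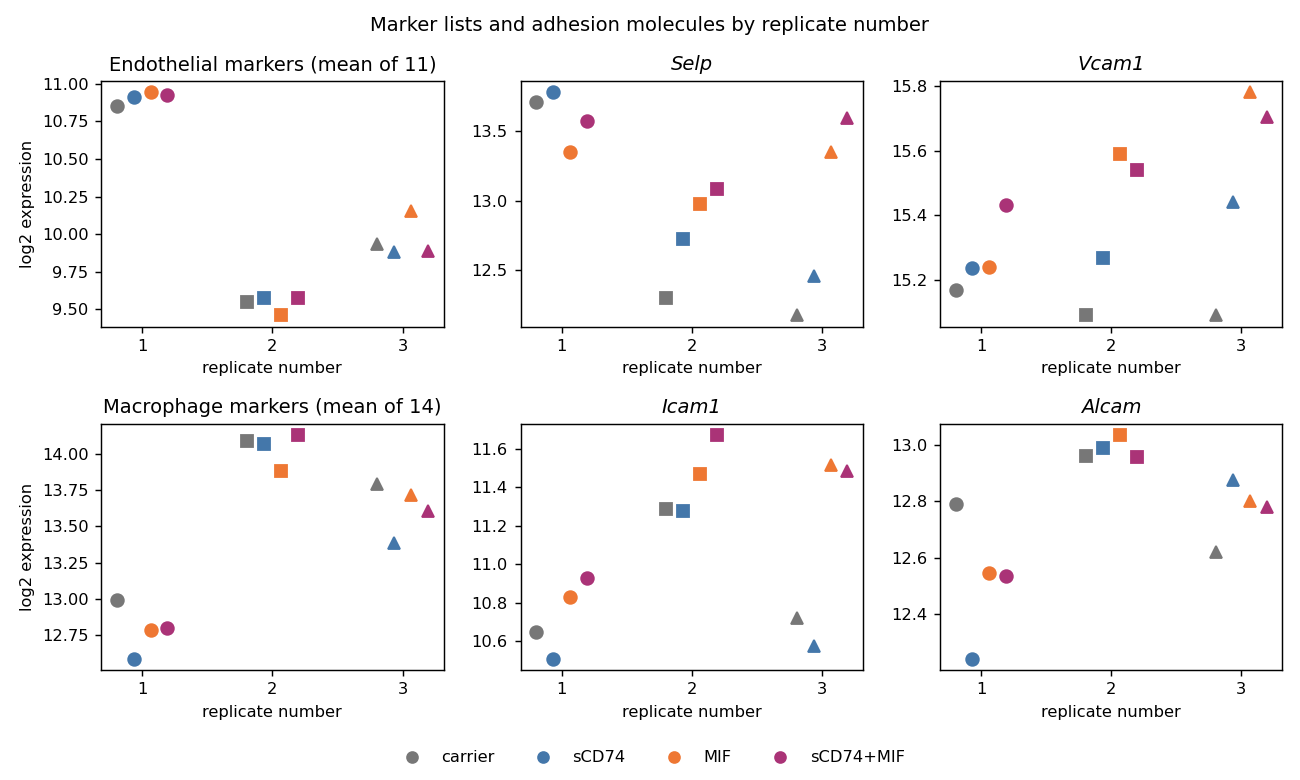
Log2 expression (vertical axes) on each array against replicate number, coloured by treatment, for the mean of 11 endothelial markers, the mean of 14 macrophage markers, Selp, Vcam1, Icam1 and Alcam. Number 1 has the highest endothelial and the lowest macrophage means, and Selp is above 13.3 on all 4 of its arrays.

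The profiles of the 5 genes across the 12 arrays were then set beside each other, after the mean of the replicate number was subtracted from each value. Arrays share treatments and replicate numbers, so the correlations are descriptions. Vcam1 ran with Sele (r = 0.84), Selp (0.84) and Icam1 (0.78), and Icam1 with Selp (0.78) and Sele (0.72). Alcam had r between 0.12 and 0.28 with the other 4. Without the subtraction Icam1 and Selp had r = -0.05, since number 1 was low in the former and high in the latter.

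Likeness was sought among 10856 of the 11290 genes above the negative control level. Predicted genes with Gm or Rik names and olfactory, vomeronasal, microRNA and small nucleolar RNA genes were passed over. By Pearson's r over the 12 arrays, again less the number means, the genes nearest to Vcam1 were the amino acid transporter Slc7a2 (0.95), Gpatch4 (0.94), the chemokine Ccl5 (0.94), Tmem123 (0.93) and the monocyte attractant Ccl2 (0.92). With values as deposited they were Ccl7 (0.92), Ccl2 (0.90), Ccl5 (0.89), Nfkbia (0.88) and Birc3 (0.88). Icam1 had a different set of nearest genes. They were the receptor kinase Kit (0.97), Gemin5 (0.95), Cul7 (0.95), Tapbp, which helps load peptides on MHC class I (0.95), and Cacnb1 (0.95), and as deposited Syngr2 (0.95), Exosc5 (0.95), Tmem50b (0.94), Trim8 (0.94) and Psmb6 (0.94).

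Sele lay nearest to Tnfaip3 (0.95), Irf1 (0.94) and Tob1 (0.93), and as deposited to Tnfaip3 (0.93), Irf1 (0.92) and Birc3 (0.91). Tnfaip3 and Irf1 were thus near Sele by both measures. Selp lay nearest to Gpatch4 (0.92), Cldn34b4 (0.92) and Msto1 (0.91), and as deposited to Ric8b (0.92), Tram2 (0.91) and Fam78b (0.91). Alcam lay nearest to Rims4 (0.91), Nup153 (0.90) and Rev1 (0.89), and as deposited to Morn2 (0.95), Tsc2 (0.93) and Snx8 (0.92).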

How the data were processed

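Total RNA (150 ng) was labelled with the Affymetrix WT Plus kit, per the labels' protocols. RMA, Affymetrix Expression Console and Transcriptome Analysis Console appear in the submitters' processing notes, with no version. The authors deposited log2 values per probe set, which were used as deposited. RMA equalizes arrays, which can hide a global shift, and the sources used here give no genome build for the array design. Of 28846 probe sets 6640 were controls. The probe set with the highest mean stood for each of 19505 genes with a single symbol. All 5 members matched the RefSeq table by Entrez ID.

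Group means over 12 arrays were fitted with limma 3.58.1 in R 4.3.3 (two-sided, Benjamini-Hochberg adjustment over all genes within a contrast, threshold 0.05), which was tested on simulated data. Errors of differences are standard errors and those of levels SDs. Replicate numbers were compared in a fit with treatment and number. Members, lists and tests were chosen with earlier results of these data known. The rule for named genes took the members, called list genes or otherwise up to 3 with the smallest p, and the genes nearest in profile. The list genes at an unadjusted p under 0.05 and the called genes given as examples were picked after their values were seen.

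Replicate numbers were treated as pairs in the block fits, the differences inside numbers and the permutation inside numbers, because arrays with the same number share a code in their titles. The fit without the block left the number out, so its errors, intervals and p-values ignore the pairing. It gave the values of the first comparison and of each gene's separate comparisons. Their deviations from the group means had a median correlation of 0.433 (0.097 to 0.647, above 0.1 in 17 of 18 pairs), against -0.212 between different numbers. Subtracting a group mean makes the deviations of its arrays cancel. The value between different numbers is thus tied to that within numbers and is no separate evidence. Alternatives were the replicate block, trend and robust variance, median centring, repeated quantile normalization, a filter on low genes, the lowest-mean probe set, fits of the compared groups only, exact permutation and leaving out arrays or replicate numbers.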

Additional observations from a re-analysis of the deposited data

Results flagged for a closer look

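The MIF difference of Selp ran the opposite way in replicate number 1. MIF less carrier was -0.36 in number 1, 0.67 in number 2 and 1.18 in number 3, and both proteins less sCD74 was -0.21, 0.36 and 1.14. In a limma fit with a term for MIF by replicate number, added after the values were seen, the MIF difference of Selp in number 1 was below that in numbers 2 and 3 by -1.12 ± 0.16 (SE; unadjusted p = 3.1e-05). It did not pass the adjustment over all genes (adjusted p = 0.606), 0 genes did (0%), and 1250 (6.41%) had an unadjusted p under 0.05. A pattern of both MIF arrays below in number 1 and above in numbers 2 and 3 was held by 54 genes (0.277%). Without number 1, Selp was higher with MIF by 0.84 (unadjusted p = 2.9e-04, adjusted p = 0.563, limma). Number 1 was singled out for its opposite difference, so a larger value and a smaller p without it follow from that choice. The endothelial markers, high in number 1, are described above, and their part in this difference was not tested. No array stood far from the rest in the 25 sets of 4 or 6 arrays examined for the 5 genes.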

How the results depend on the processing

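The MIF differences of Vcam1, Icam1, Sele and Selp stayed above 0 under all 24 alternatives and leave-outs. The block, variance, low-gene filter, lowest-mean probe set and permutation settings keep the difference as it is by construction. They therefore do not test its sign. No adjusted p was under 0.05, and the permutation tests gave no adjusted p. Leaving out arrays or replicate numbers gave 0.26 to 0.43 for Vcam1, 0.29 to 0.60 for Icam1, 0.95 to 1.43 for Sele and 0.12 to 0.84 for Selp. For MIF against carrier the ranges were 0.28 to 0.59 for Vcam1, 0.18 to 0.61 for Icam1, 0.66 to 1.83 for Sele and 0.16 to 0.99 for Selp. Icam1 and Selp were lowest without replicate number 3, and highest without MIF replicate 1 and carrier replicate 1 respectively. With the replicate block 1 gene was called for MIF, and the block changed the call of none of the 5 genes. With the block, trend and robust variance together, limma called 3 genes for MIF, 1 for MIF against carrier, 6 for both against carrier and 2 for both against sCD74, where the fit without the block called 0. Without MIF replicate 1 the count for MIF was 1 (0 to 1 over the leave-outs). For number 3 against 2 the count was 224, against 734 with trend and robust variance, 540 with genes above the negative control median only and 59 to 227 over the leave-outs. It was 65 or 68 without carrier replicate 2 or 3, 59 or 69 without sCD74 replicate 2 or 3, and 111 or 97 without replicate 2 or 3 of both proteins. For number 1 it was 3204, against 2079 (without sCD74 replicate 1) to 3063. The cause was not tested.

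Small differences changed sign. Alcam for MIF against carrier was -0.011 with quantile normalization once more. Over the leave-outs Alcam ranged from -0.086 to 0.10 for MIF, from -0.12 to 0.13 for MIF against carrier, from -0.26 to 0.14 for sCD74 and from -0.13 to 0.079 for both. It ranged from -0.17 to 0.20 for both against sCD74 and from -0.19 to 0.21 for the interaction. For sCD74 the ranges were -0.34 to 0.10 for Icam1, -0.63 to 0.31 for Sele and -0.14 to 0.75 for Selp, and for the interaction -0.034 to 0.43, -0.80 to 0.59 and -0.56 to 0.33. For number 3 against 2 they were -0.49 to 0.12 for Sele and -0.062 to 0.31 for Selp. Sele was called lower in number 1 without carrier replicate 3 (-0.91, adjusted p = 0.0183), without sCD74 replicate 2 (-0.89, adjusted p = 0.0295) and with genes above the negative control median only (adjusted p = 0.0451), whereas without MIF replicate 1 the difference was -0.37 (adjusted p = 0.317). Alcam missed with quantile normalization once more (adjusted p = 0.0515).

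By Spearman's rho, the nearest genes included 2 of the 5 named for Vcam1 less number means and 0 of 5 as deposited, 3 and 0 of 5 for Icam1, 1 and 2 of 3 for Sele, and 1 and 1 of 3 for each of Selp and Alcam. With 12 arrays such orders are loose, and Sele lies near the background.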

Other observations

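Leukocyte genes that bind the adhesion molecules also differed by replicate number. In number 1, 5 of 16 counter-receptors and selectin ligands were called lower and 2 higher, at 9.39% and 7.03% of all genes. The lower ones included Selplg, the P-selectin ligand PSGL-1 (-1.29 ± 0.10, SE), Itgb2, the beta chain of LFA-1 and Mac-1 (-0.93 ± 0.13), and Itga4, the alpha chain of the VCAM-1 receptor (-0.48 ± 0.10). Itga9 (0.51 ± 0.08) and Cd24a, which averaged below the negative controls, were the higher ones. Selplg thus stood low in the number in which Selp, whose product it binds, stood high.

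Junction genes of the endothelium went with Selp in number 1. In that comparison 7.03% of all genes were called higher and 9.39% lower. Of 16 vessel and junction molecules 8 were called higher, among them Cdh5, which encodes VE-cadherin (2.67 ± 0.15), Pecam1 (2.48 ± 0.16) and Mcam (2.13 ± 0.14), while Cd34 (-0.59 ± 0.09) and Cd99 (-0.39 ± 0.12) were lower. Of the 9 anchors and sheddases, Ezr (-0.72 ± 0.10), an anchor of ICAM-1 and VCAM-1 to actin, and the sheddase Adam17 (-0.54 ± 0.08) were called lower, and 3 were called higher.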
